A study of Mus musculus with 12 samples.

Results

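The 5 mouse dopamine receptor genes, Drd1 to Drd5, were taken by symbol from a table of 21872 gene symbols and followed across prefrontal cortex and striatum of control and dopamine-lesioned mice. All 5 symbols were found. The bulk RNA-seq series models attention-deficit/hyperactivity disorder in C57BL/6J mice at postnatal day 24 with 6-hydroxydopamine (6-OHDA), a toxin taken up by catecholamine neurons. It holds 4 groups of 3 libraries: 6-OHDA mice, whose libraries the labels mark ADHD, and control mice, each treatment with libraries of prefrontal cortex and of striatum. These groups are called lesioned and control here. The sources used here do not give the dose, route or day of 6-OHDA or the treatment of the controls, and the labels name the strain with no allele. They also do not say whether the 3 libraries of a group are 3 animals, so each p-value rests on a spread between libraries that may be technical. Nor do they say whether both regions came from the same mice, and the tests between regions treated all libraries as independent.

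Dopamine receptors are G protein-coupled receptors in 2 classes. The D1-like receptors, encoded by Drd1 and Drd5, couple to stimulatory G proteins and raise cyclic AMP. The D2-like receptors, encoded by Drd2, Drd3 and Drd4, couple to inhibitory G proteins and lower it. In striatum, Drd1 marks the projection neurons of the direct pathway and Drd2 those of the indirect pathway. Drd2 also serves as an autoreceptor on dopamine neurons and is made by cholinergic interneurons, while Drd3 is best known from the nucleus accumbens and the islands of Calleja at the ventral edge of the striatum.

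On GRCm38, in the GENCODE vM21 annotation, Drd1 lies on the minus strand at chr13:54051183-54055705 with 2 exons. Drd2 lies on the plus strand at chr9:49340627-49408177 with 8 exons. Drd3 lies on the plus strand at chr16:43754026-43822932 and Drd4 on the plus strand at chr7:141292006-141296464. Drd5 has 1 exon, on the plus strand at chr5:38319367-38322518, of which 1531 bases are covered by the exon of an antisense transcript, Gm26560. The sources used here do not say whether the authors counted by strand, so Drd5 counts may hold reads of that transcript.

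The bases just before a RefSeq start are shown for the 3 receptors whose striatal values the lesion comparison turns on. Drd1 and Drd2 were both higher and Drd3 lower in every lesioned striatal library. The sequences are RefSeq's for GRCm38.p6, 5′ to 3′ on the gene's strand and trimmed before annotated exons. Capitals mark the GC box, letters GGGCGG on either strand (CCGCCC when read on the other), the only motif searched that occurs in them. The Drd1 stretch is chr13:54055706-54055908 on the minus strand, the Drd2 stretch chr9:49340153-49340402 and the Drd3 stretch chr16:43761971-43762207, both on the plus strand. The Drd3 stretch lies inside the gene as GENCODE vM21 draws it, from chr16:43754026, and whether it acts as a promoter was not tested.
Drd1: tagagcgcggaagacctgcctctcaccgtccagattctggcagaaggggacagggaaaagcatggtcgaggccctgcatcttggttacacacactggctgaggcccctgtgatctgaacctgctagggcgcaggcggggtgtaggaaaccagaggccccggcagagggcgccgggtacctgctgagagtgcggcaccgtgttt
Drd2: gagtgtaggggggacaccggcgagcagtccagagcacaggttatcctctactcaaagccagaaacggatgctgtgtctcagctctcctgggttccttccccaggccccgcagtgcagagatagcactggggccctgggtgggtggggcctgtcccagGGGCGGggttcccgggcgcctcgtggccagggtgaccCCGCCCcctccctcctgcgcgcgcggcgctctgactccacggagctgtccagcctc
Drd3: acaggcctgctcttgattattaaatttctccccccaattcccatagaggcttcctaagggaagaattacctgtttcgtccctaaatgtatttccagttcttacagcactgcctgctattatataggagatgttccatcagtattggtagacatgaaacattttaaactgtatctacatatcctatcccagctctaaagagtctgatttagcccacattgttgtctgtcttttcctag
The Drd2 stretch holds 2 GC boxes, whose first bases lie 93 and 56 bases before the start. The Drd1 and Drd3 stretches hold 0, although 250 bases before a second RefSeq start of Drd1 hold 1. Among 32851 RefSeq promoters of 250 bases, 32.7% hold a GC box. The Drd1 and Drd2 windows are rich in G and C, at 64.0% and 68.8% against a median of 52.4%. The Drd3 window, inside the GENCODE gene, has 39.2%. The letters TATAAA, TGACGTCA and TGACG (which TGACGTCA contains), searched on both strands, are in 12.4%, 1.55% and 17.8% of promoters and in none of the windows of the 5 genes. The letters CANNTG are in 66.2% of promoters, and among the 5 genes only the second Drd1 window holds them, with 2 matches. These matches describe the letters of the windows and no factor's binding.

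Each library held between 15078631 and 20925452 counts. Levels are given as CPM, a gene's share of its library's counts scaled to a fixed total, on which 3 counts, taken as the floor, are worth 0.143 to 0.199 CPM by counting error alone. Marker genes followed the tissue labels: 12 cortical excitatory neuron genes summed to 3098 to 3320 CPM in prefrontal libraries and 306 to 1311 in striatal ones, and 15 striatal projection neuron genes to 1717 to 2541 and 3618 to 15782 CPM. Neither region contains the midbrain bodies of dopamine neurons, so their loss was not measured here. Of dopamine neuron marker genes, 2 of 6 had values above 0 in lesioned against control striatum (median -0.31, 0 called by edgeR, 0 at an unadjusted p below 0.05). In prefrontal cortex edgeR called 2 of 5 lower, against 2.28% of all 14018 genes tested. These were the dopamine synthesis enzyme Ddc at -0.80 (adjusted p = 0.00629) and Aldh1a1 at -0.26 (adjusted p = 0.0423). With all 12 libraries in 1 fit it called 0 of 6. Th, the rate-limiting enzyme, was at -0.96 (edgeR adjusted p = 0.0962) without overlap in CPM. Its counts were 166, 50 and 52 in control and 43, 50 and 45 in lesioned prefrontal libraries, so control library 1 stood far above the rest. Over the 8 of 10 listed genes with ordinary counts, the dopamine neuron list summed to 102 to 119 CPM in lesioned striatum and 121 to 130 in control. In prefrontal cortex it summed to 76.4 to 82.2 CPM in lesioned and 86.2 to 96.7 in control libraries. Aldh1a1 held the most counts of these genes in every library, while Slc6a3 had 2 to 18. Striatal Ret and Slc18a2 were lowest in lesioned library 1, at 64 and 14 counts against 281 to 564 and 91 to 142 in the other 5. In striatum, lesioned library 1 had the fewest counts of genes from the hypothalamic and basal forebrain border. They summed to 255 CPM over the 10 of 15 listed genes with ordinary counts, against 490 to 872 in the other 5 libraries. Control library 2 had the most of choroid plexus and ependyma (2293 CPM over 9 genes, against 45.1 to 103). It also had the most of the 12 cortical genes, 1311 CPM against 306 to 560 in the other 5. The part of these differences in the receptor values was not tested.

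Drd1 was the most abundant receptor in prefrontal cortex by mean level, and Drd2 and Drd1 were the most abundant in striatum. Levels per exonic length are given as CPM per kilobase of exon (RPKM), with lengths from GENCODE vM21, which may not be the authors' annotation. In control striatum, Drd2 was at 27.9 ± 6.91 RPKM (SD, n = 3) and Drd1 at 27.3 ± 7.15, and their ranges overlapped. Drd3 followed at 2.66 ± 0.59 and Drd5 at 2.01 ± 0.35, again with overlapping ranges, and Drd4 was last at 0.0115 ± 0.010. In control prefrontal cortex the order was Drd1 at 6.00 ± 2.41 RPKM, Drd2 at 4.03 ± 2.93, Drd5 at 0.816 ± 0.20, Drd4 at 0.0586 ± 0.034 and Drd3 at 0.0364 ± 0.035, and neighbours overlapped between Drd1 and Drd2 and between Drd4 and Drd3.

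After lesion, Drd2 reached 77.1 ± 30.4 RPKM and Drd1 58.4 ± 24.9 in striatum, still with overlapping ranges. Drd5, at 1.63 ± 0.30 RPKM, and Drd3, at 1.38 ± 0.54, also overlapped, in the reverse order of means from control striatum. In lesioned prefrontal cortex Drd1, at 4.83 ± 1.44 RPKM, lay above Drd2, at 2.09 ± 1.12, without overlap. Drd2 there overlapped Drd5, at 1.11 ± 0.11 RPKM.

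**Figure D1:**
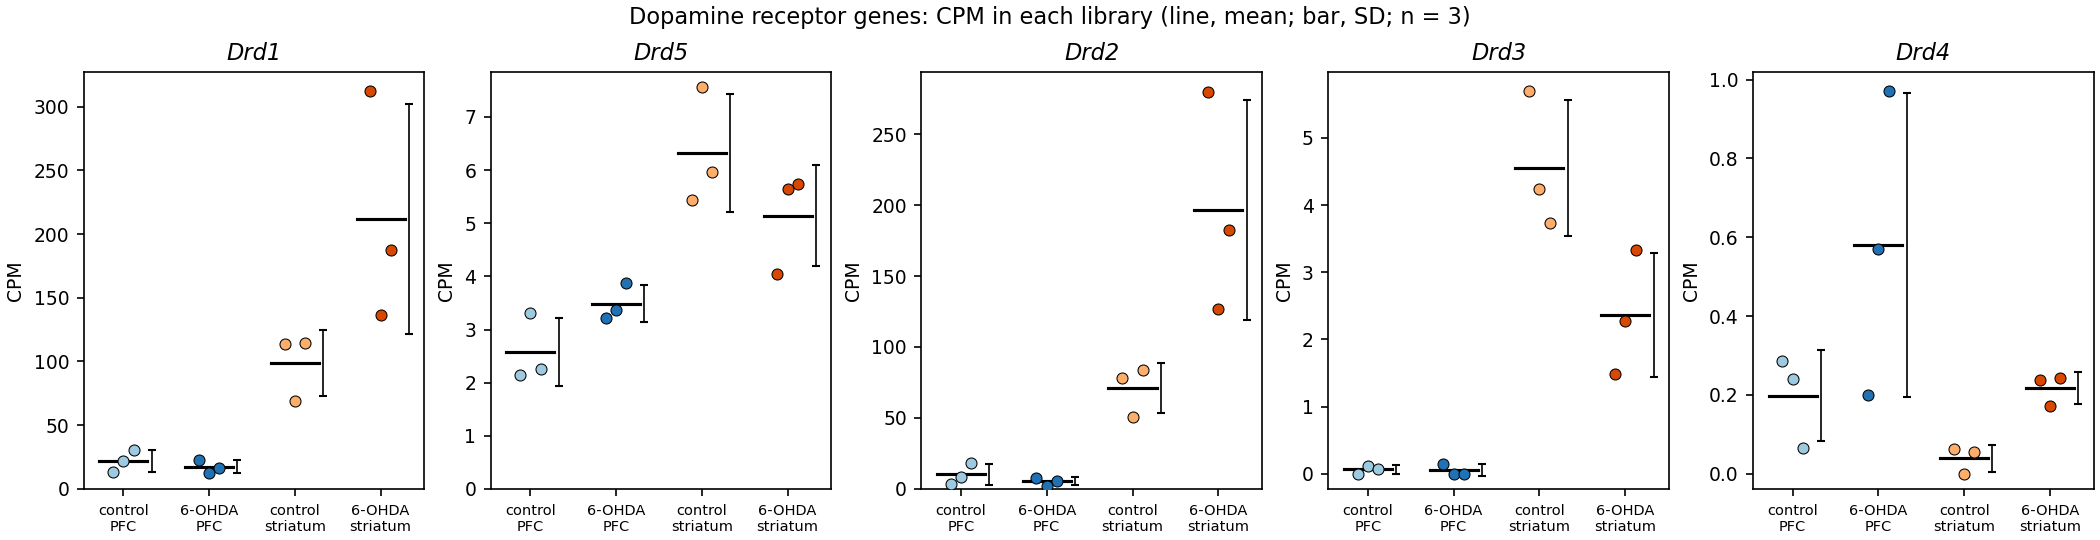
Level of each dopamine receptor gene in each library, in CPM on a linear axis with its own scale per gene. Points are libraries, lines means and bars 1 SD of 3 libraries. Drd1 and Drd2 are highest in lesioned striatum, Drd3 is highest in control striatum, and Drd4 stays below 1 CPM everywhere.

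Drd1, Drd2 and Drd5, the receptors with counts well above the floor in both regions, were each higher in striatum than in prefrontal cortex of control mice. Drd1, the D1 receptor of direct pathway neurons, was at 114, 69.1 and 114 CPM in control striatal libraries 1 to 3 and at 13.1, 21.6 and 30.6 CPM in the prefrontal ones. No control striatal library came within the prefrontal range. The difference was 2.05 on the log2 scale (SE 0.30; adjusted p = 0.00101, edgeR's quasi-likelihood test), or 4.13-fold.

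Drd2, the D2 receptor of indirect pathway neurons, was at 78.1, 50.9 and 83.9 CPM in control striatum and at 3.82, 8.56 and 18.4 CPM in control prefrontal cortex. It was 6.39-fold higher in striatum, 2.68 on the log2 scale (SE 0.45, edgeR adjusted p = 0.00199). Drd5, the second D1-like receptor, was at 5.44, 7.56 and 5.96 CPM in control striatum and at 2.15, 3.31 and 2.25 CPM in prefrontal cortex. Its striatal excess was the smallest of these 3, 2.21-fold or 1.14 on the log2 scale (SE 0.23, edgeR adjusted p = 0.00470).

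Drd3, the D3 receptor, was almost confined to striatum at this depth. It had 91, 69 and 69 counts in control striatal libraries and 0, 2 and 1 in prefrontal ones. The summed counts of 229 and 3, scaled to library totals, stand in a ratio of 79.2 (95% interval 26.7 to 387, exact, counting error only). Drd3 passed the filter on low counts through its striatal libraries alone, so no test across replicates is given for it here. After lesion the striatal libraries had 25, 40 and 55 counts and the prefrontal ones 3, 0 and 0, a ratio of 43.2 (14.4 to 213).

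Drd4, the D4 receptor, was the reverse case, with very few reads. It had 6, 4 and 1 counts in control prefrontal libraries and 1, 0 and 1 in control striatal ones. Summed, prefrontal cortex had 5.30 times the striatal count per library total (95% interval 1.16 to 49.2, exact, counting error only). Drd4 passed the filter on low counts in no comparison and has no test across replicates.

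In lesioned mice the striatal excess was 11.4-fold for Drd1 (log2 3.51, SE 0.37, edgeR adjusted p = 0.000282) and 34.3-fold for Drd2 (log2 5.10, SE 0.47, edgeR adjusted p = 0.000145). For Drd5 it was 1.37-fold (log2 0.45, SE 0.17) and missed the threshold of 0.05, at an edgeR adjusted p of 0.0637. Leaving out lesioned striatal library 1 gave 0.56 and an adjusted p of 0.0169. Of Drd1, Drd2 and Drd5, 3 of 3 were called higher in striatum in controls, where 21.3% of all 14239 genes tested were called higher and 42.3% in either direction. In lesioned mice 2 of 3 were called higher, where 22.7% of 14206 genes were called higher and 45.2% in either direction. Striatal and prefrontal libraries of these 3 did not overlap in CPM in controls or in lesioned mice, against 59.8% and 59% of genes tested. Drd4 in controls was lower in striatum, and its lack of overlap rested on 1 count in a prefrontal library against 1 in a striatal one.

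The first lesion question was how the receptors stood in lesioned against control striatum. Drd1 and Drd2 were higher in each lesioned library than in any control library, by 2.26-fold and 2.92-fold, and Drd3 was lower, at 0.539 of its control level. Neither these nor Drd5 passed the test adjusted over all 14288 genes, so 0 of 4 tested receptors were called by edgeR. At an unadjusted p below 0.05 edgeR had 3 of 4, DESeq2 called 2 at its adjusted threshold and limma-voom 0. Of all genes tested, 0.028% (4 genes) were called by edgeR, and 2475 reached an unadjusted p below 0.05. The share called by DESeq2 was 3.7%. In bulk tissue, a different number of cells of a type and a different amount of RNA per cell cannot be told apart.

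Drd1 counted 5231, 2391 and 3100 reads in lesioned striatal libraries 1 to 3, or 312, 136 and 187 CPM, against 114, 69.1 and 114 CPM in controls. Lesioned library 1 was the highest and control library 2 the lowest of the 6, and the lowest lesioned library stood above the highest control. The log2 fold change was 1.18 (SE 0.35, 95% interval 0.36 to 1.99, edgeR adjusted p = 0.200), the 96th highest of 14288. DESeq2 gave the same 1.18 with an adjusted p of 0.0146. Without lesioned library 1 the value was 0.73, and without it and control library 2 it was 0.53 (edgeR adjusted p = 0.152).

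Drd2 counted 4690, 2228 and 3021 reads, or 280, 127 and 183 CPM, in lesioned striatum against 78.1, 50.9 and 83.9 CPM in controls. The same libraries were highest and lowest as for Drd1, and the groups again did not overlap. The log2 fold change was 1.55 (SE 0.33, 95% interval 0.77 to 2.32, edgeR adjusted p = 0.164), the 43rd highest of 14288. DESeq2 gave 1.55 with an adjusted p of 1.57e-04, and with lesioned library 1 and control library 2 left out edgeR gave 0.96 (adjusted p = 0.0614).

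Drd3 was at 1.49, 2.28 and 3.33 CPM in lesioned striatum and at 5.69, 4.24 and 3.74 CPM in controls. Every lesioned library lay below every control, and library 1 was the lowest lesioned one. The log2 fold change was -0.89 (SE 0.30, 95% interval -1.59 to -0.19, edgeR adjusted p = 0.221), the 285th lowest of 14288. Markers of the hypothalamic and basal forebrain border, which in these libraries moved with Drd3 in lesioned library 1, summed there to 255 CPM against 804 and 723 CPM in lesioned libraries 2 and 3 and 490 to 872 in controls, and their part in the Drd3 value was not tested. Leaving out each library in turn gave -1.20 to -0.68.

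Drd5 was at 4.05, 5.64 and 5.74 CPM in lesioned and 5.44, 7.56 and 5.96 CPM in control striatum, and the groups overlapped. Its log2 fold change was -0.24 (SE 0.19, 95% interval -0.69 to 0.21, edgeR adjusted p = 0.523) and turned to 0.02 without lesioned library 1 and control library 2. Drd4 had 4, 3 and 4 counts in lesioned libraries and 1, 0 and 1 in controls. The summed ratio was 5.48 (95% interval 1.20 to 50.9, exact, counting error only), and all 6 values lay at or near the floor of 3 counts. Of the 4 tested receptors, 3 did not overlap between lesioned and control striatum, 2 higher and 1 lower. Of all genes tested, 26.4% did not overlap, 8.8% higher and 17.6% lower.

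**Figure D2:**
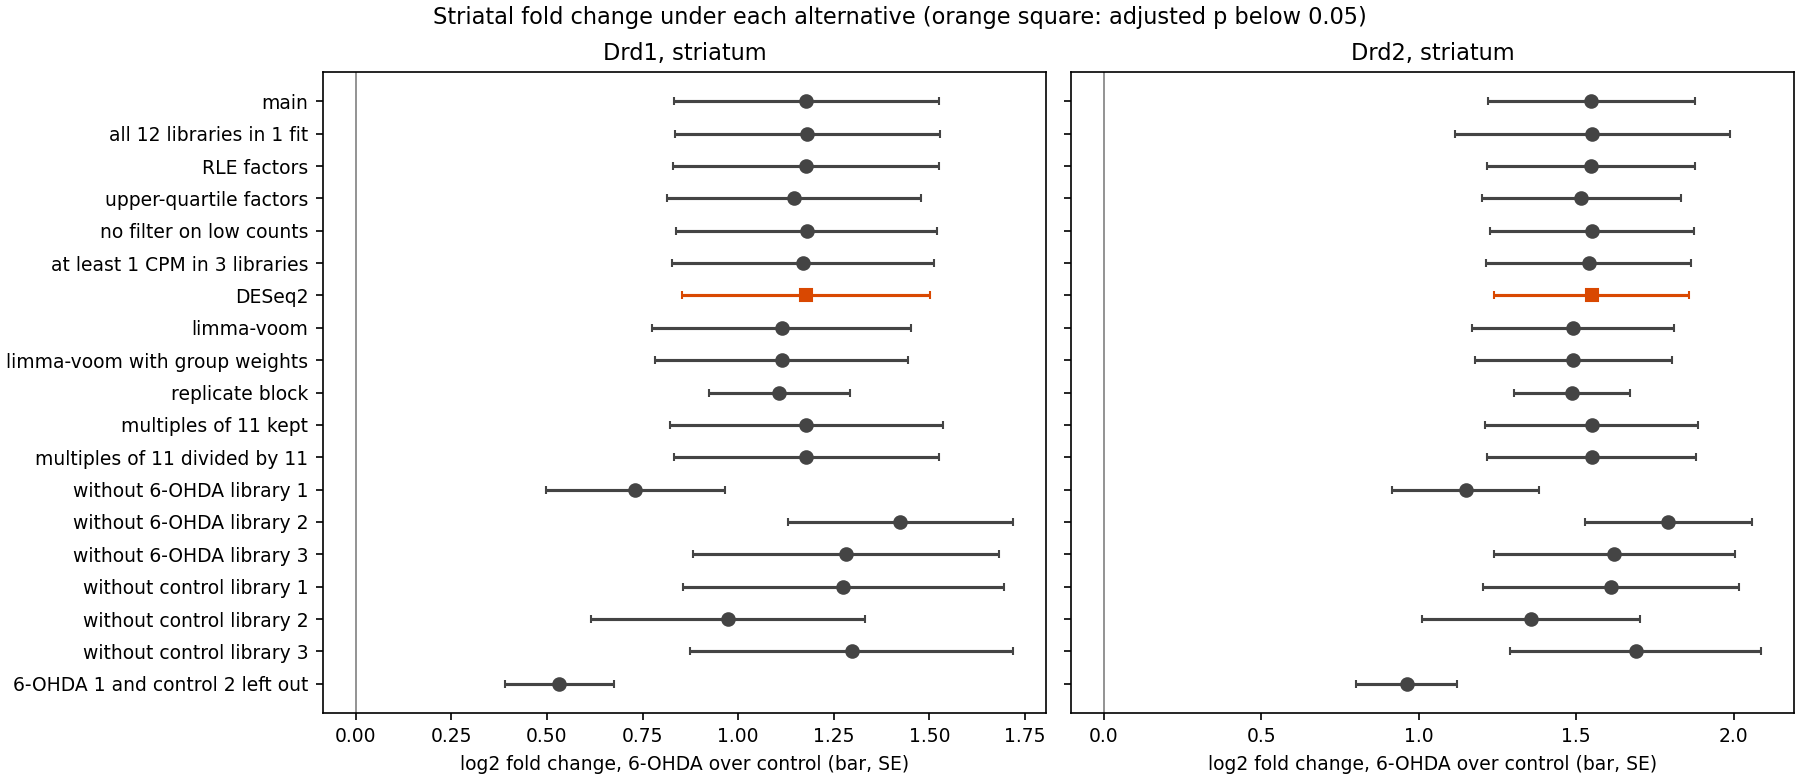
Log2 fold change of Drd1 and Drd2 between lesioned and control striatum under each alternative of model, scaling, filter and left-out library, with bars of 1 SE. Values stay above 0 throughout, the 2 DESeq2 points pass the adjusted threshold, and leaving out lesioned library 1 with control library 2 gives the lowest values, 0.53 and 0.96.

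Genes of striatal projection neurons as a class stood higher in the lesioned striatal libraries by an amount like that of Drd1. Of 15 such markers, chosen with these data known, 15 had values above 0 with a median of 1.26 on the log2 scale, against -0.00 over all genes tested, and 13 did not overlap. edgeR called 0 of 15 (15 at an unadjusted p below 0.05), DESeq2 called 9, limma-voom 0, and edgeR in 1 fit of all 12 libraries 10, where that fit called 7.15% of all genes. The 4 with the smallest p were Foxp1, a transcription factor of these neurons, at 1.26 (SE 0.28), the phosphodiesterase Pde10a at 1.65 (SE 0.37), Ido1 at 1.81 (SE 0.45) and the sodium channel subunit Scn4b at 1.86 (SE 0.47). The list summed to 15782, 6895 and 9559 CPM in lesioned libraries 1 to 3 and to 5172, 3618 and 5635 CPM in controls, the order of libraries that Drd1 and Drd2 also had. With lesioned library 1 and control library 2 left out the median was 0.66, and edgeR called 0 of 15. Markers of other cell types also stood apart in striatum: 7 of 7 choroid plexus and ependyma genes were below 0 (median -1.72, 5 without overlap), 6 of 6 endothelial genes below 0 (median -0.24, 3 without overlap) and 6 of 6 microglial genes above 0 (median 0.29, 3 without overlap). edgeR called 0 genes of these 3 lists (4, 3 and 2 at an unadjusted p below 0.05), and in 1 fit of all 12 libraries 2 lower, 3 lower and 1 higher. Their summed levels were 45.1 to 65.0 CPM in lesioned and 80.2 to 2293 in control libraries, 156 to 193 and 187 to 225, and 392 to 467 and 314 to 390, in the same order, and their part in the projection neuron and receptor values was not tested. Of 6 astrocyte genes 4 were below 0 (median -0.15, 3 lower without overlap). edgeR called 0 of them, and 1 lower in the fit of all 12 libraries. They summed to 4170 to 4711 CPM in lesioned and 4907 to 5076.5 in control striatum, and their part was not tested. Of all genes tested, 8.8% stood higher and 17.6% lower without overlap. DESeq2 called 3.7%, and 2475 of 14288 reached an unadjusted p below 0.05 by edgeR.

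The receptors were also set against these markers within each library, as the log2 CPM of the receptor minus the mean log2 CPM of the list. For Drd1 this ratio was -1.06, -1.14 and -1.12 in lesioned and -0.94, -1.19 and -1.10 in control striatum. The groups overlapped and their means differed by -0.03 (exact two-sided permutation p = 0.8). For Drd2 it was -1.22, -1.24 and -1.16 in lesioned and -1.49, -1.63 and -1.55 in control striatum, which did not overlap. The means differed by 0.35, and the exact permutation p was 0.1, the smallest that 3 against 3 libraries can give, or 0.222 after Benjamini-Hochberg adjustment over 20 such ratios.

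Drd2 was also set against Drd1 within each library. Drd2 made up 40.7%, 42.4% and 42.3% of the reads of both genes in control libraries and 47.3%, 48.2% and 49.4% in lesioned ones. Their exact (Clopper-Pearson) 95% binomial intervals, which cover counting error only, ran from 39.0 to 44.6% in controls and from 46.3 to 50.6% in lesioned libraries. The log2 ratio was -0.54, -0.44 and -0.45 in controls and -0.16, -0.10 and -0.04 in lesioned libraries, so that Drd2 relative to Drd1 was 1.30-fold higher after lesion (0.38 on the log2 scale; exact permutation p = 0.1, adjusted 0.222). Leaving out any library gave 0.35 to 0.41, and leaving out lesioned library 1 with control library 2 gave 0.43. The CPM of either gene alone spread far more widely among the lesioned libraries, from 136 to 312 for Drd1 and from 127 to 280 for Drd2.

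**Figure D3:**
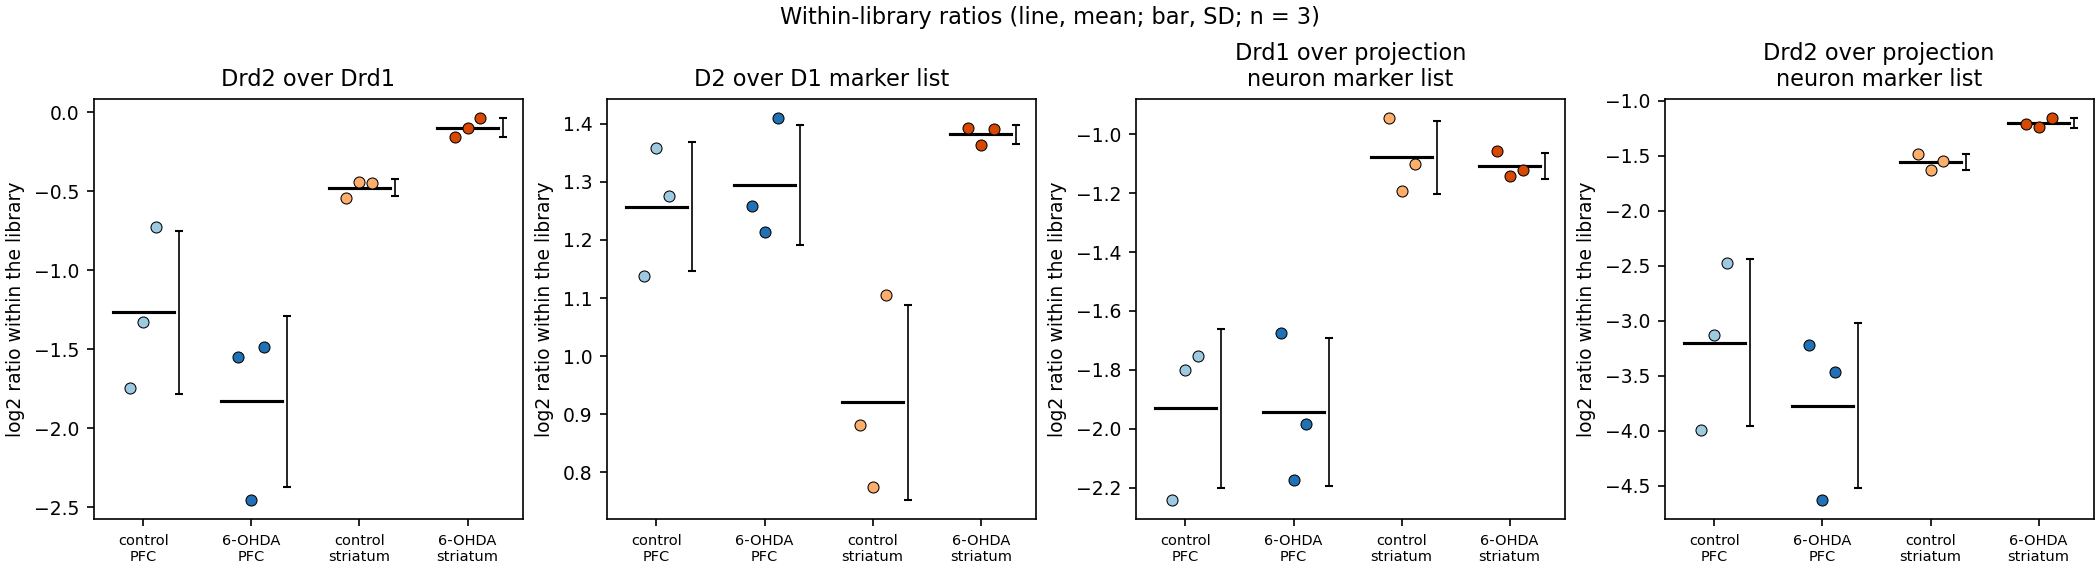
Within-library log2 ratios by group: Drd2 over Drd1, the D2 over the D1 marker list, and Drd1 and Drd2 over the projection neuron marker list. Points are libraries, lines means and bars 1 SD of 3 libraries. In striatum Drd2 over Drd1 runs from -0.54 to -0.44 in controls and from -0.16 to -0.04 after lesion, while Drd1 over the markers overlaps.

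Other genes of the indirect and direct pathways were compared in the same way, in ratios added after these values had been seen. Of 8 indirect pathway markers, 8 had values above 0 in striatum (median 0.98, 7 without overlap), and edgeR called 0 (7 at an unadjusted p below 0.05), DESeq2 5, limma-voom 0 and the edgeR fit of all 12 libraries 4. They included the opioid peptide precursor Penk at 1.25 (SE 0.25), the orphan receptor Gpr6 at 1.28 (SE 0.27), Plxdc1 at 0.72 (SE 0.16) and the phosphatase Ptprm at 0.42 (SE 0.12). Of 8 direct pathway markers, 5 had values above 0 (median 0.43, 2 without overlap), and edgeR called 0 (3 at an unadjusted p below 0.05), DESeq2 1, limma-voom 0 and the edgeR fit of all 12 libraries 1. The muscarinic receptor Chrm4 was at 0.997 (SE 0.26), Slc35d3 at 0.81 (SE 0.29), the transcription factor Ebf1 at 0.71 (SE 0.29) and the opioid peptide precursor Pdyn at 0.41 (SE 0.21). Of all genes tested, 8.8% were higher without overlap, and 2475 of 14288 reached an unadjusted p below 0.05 by edgeR. DESeq2 called 3.7% of genes in either direction, and the edgeR fit of all 12 libraries called 4.15% higher. The mean of the indirect list over that of the direct list was 0.88, 0.78 and 1.10 in control and 1.39, 1.36 and 1.39 in lesioned libraries, a difference of 0.46 without overlap (exact permutation p = 0.1). By the medians of the lists the difference was 0.23.

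Each receptor was also set against its own pathway's list. Drd1 over the direct list was 0.75 higher in lesioned than in control striatum, and Drd2 over the indirect list 0.67 higher, both on the log2 scale without overlap and at the smallest exact p of 0.1. With lesioned library 1 and control library 2 left out these values were 0.42 and 0.46. Against the projection neuron list Drd1 had differed by only -0.03. Each of these lists holds genes that were not called higher in control striatum than in control prefrontal cortex. They are Eya1 (-0.58 on the log2 scale), Sfxn1 (0.22) and Chrm4 (0.26) of the direct list, and Plxdc1 (-0.87), Grik3 (-0.29) and Ptprm (0.02) of the indirect list. Of the projection neuron list 12 of 15 were called higher, and Foxp1 (-0.32), Arpp21 (0.01) and Meis2 (0.35) were not. Lesioned minus control was -2.01 for Drd3 over Drd1 and -1.34 for Drd5 over Drd1, again without overlap, and -1.21 and -0.49 with those libraries left out. Drd5 alone was at -0.24 with overlapping groups, while Drd1 was at 1.18.

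In shares of the summed RPKM of the 5 genes, Drd2 held 46.4 ± 1.40% (SD, n = 3) in control striatum and 55.6 ± 0.68% after lesion, and Drd1 45.4 ± 1.76% and 41.8 ± 1.44%. Drd3 held 4.59 ± 1.27% and 1.15 ± 0.61%, and Drd5 3.6 ± 1.62% and 1.35 ± 0.67%. Each receptor's share is tied to the others', and the Drd5 ranges, 2.57 to 5.46% and 0.650 to 1.98%, did not overlap although its CPM did.

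**Figure D4:**
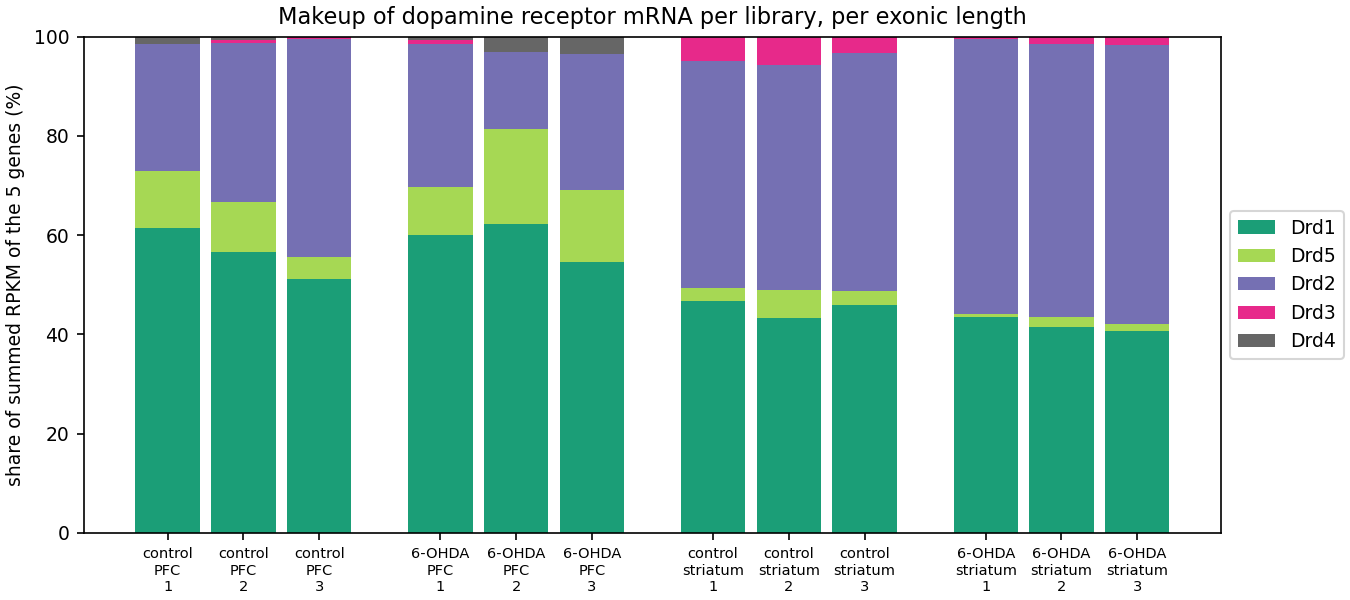
Makeup of dopamine receptor mRNA in each of the 12 libraries, as the percent of the summed RPKM of the 5 genes. Drd2 takes 45.5 to 48.0% in control and 55.0 to 56.4% in lesioned striatum, and Drd1 is the largest part in every prefrontal library.

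In prefrontal cortex no receptor was called between lesioned and control mice, and no receptor's groups were apart. edgeR called 0 of 3 tested receptors (0 at an unadjusted p below 0.05), and DESeq2 and limma-voom 0, where 5.73% of 14018 genes were called. None of the 5 receptors was free of overlap, against 26.1% of genes tested.

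Drd1 was at 23.1, 12.7 and 16.8 CPM in lesioned and 13.1, 21.6 and 30.6 CPM in control prefrontal cortex. The log2 fold change was -0.28 (SE 0.24, 95% interval -0.80 to 0.25, edgeR adjusted p = 0.572), and it turned to 0.03 without control library 3. Drd2 was at 7.82, 2.22 and 5.94 CPM in lesioned and 3.82, 8.56 and 18.4 CPM in control libraries. Its log2 fold change was -0.88 (SE 0.45, 95% interval -1.85 to 0.09, edgeR adjusted p = 0.296), the 70th lowest of 14018.

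The prefrontal Drd2 value turned on single control libraries. Without control library 3 it was -0.18, and without control library 1 it was -1.30 and passed the threshold (edgeR adjusted p = 0.0405). Striatal projection neuron markers moved with Drd2 across these libraries: their mean log2 CPM was 6.02, 6.32 and 6.74 in control libraries 1 to 3 and 6.27, 5.92 and 6.14 in lesioned ones. Drd2 over these markers overlapped between the groups (difference -0.57, exact permutation p = 0.4), and their part in the Drd2 value was not tested. Adora2a, the adenosine receptor of indirect pathway neurons, had 114, 198 and 471 counts in control and 229, 59 and 168 in lesioned prefrontal libraries, the order of libraries that Drd2 had within each group.

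Drd5 was at 3.21, 3.36 and 3.88 CPM in lesioned and 2.15, 3.31 and 2.25 CPM in control prefrontal cortex, and 1 control library reached into the lesioned range. The log2 fold change was 0.45 (SE 0.21, 95% interval -0.01 to 0.90, edgeR adjusted p = 0.252), and 0.68 (adjusted p = 0.0770) without that control library, number 2. Drd3 had at most 3 counts in any prefrontal library. Drd4 had 4, 10 and 17 counts in lesioned and 6, 4 and 1 in control prefrontal libraries. Its summed ratio was 2.7 (95% interval 1.32 to 5.94, exact, counting error only), and the libraries overlapped.

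The difference between the striatal and the prefrontal lesion effect was tested directly in all 12 libraries. It was 1.46 on the log2 scale for Drd1 (SE 0.52, edgeR adjusted p = 0.341), 2.42 for Drd2 (SE 0.71, adjusted p = 0.305) and -0.69 for Drd5 (SE 0.29, adjusted p = 0.394). For Drd3 the test cannot decide, since each prefrontal group held 3 counts in sum. Its value of -0.83 (SE 1.5) turned to 2.33 without lesioned prefrontal library 1, which holds all 3 of its counts in lesioned prefrontal cortex. None of Drd1, Drd2 and Drd5 passed the threshold by edgeR (3 of 3 at an unadjusted p below 0.05), by DESeq2 or by limma-voom. Of all 14545 genes tested, 0.0825% were called by edgeR. The lesion effects in the 2 regions are thus not shown to differ for Drd1, Drd2 or Drd5 by this test.

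**Figure D5:**
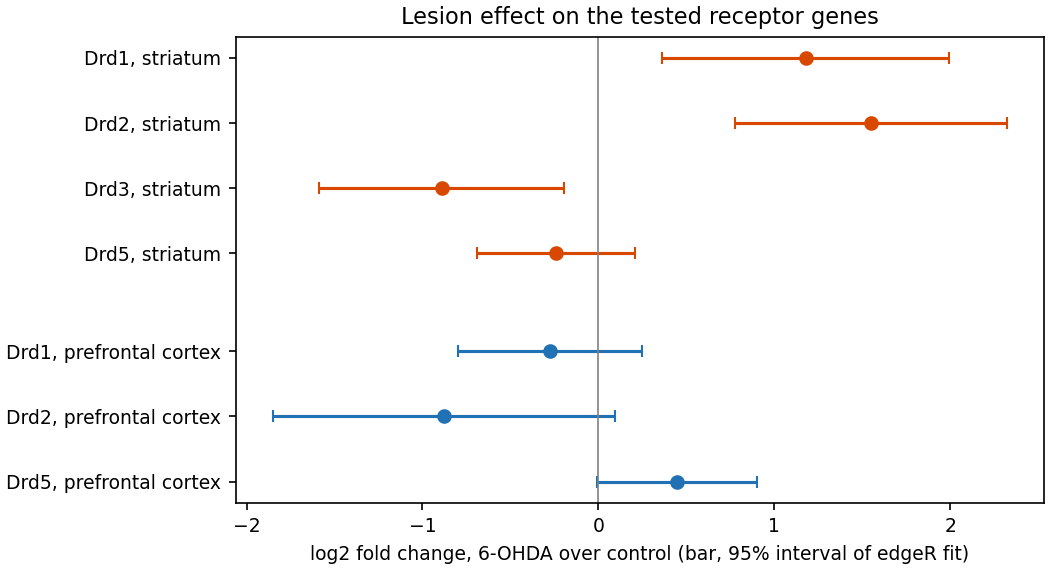
Log2 fold change of each tested receptor between lesioned and control libraries in striatum and in prefrontal cortex, with 95% intervals of the edgeR fit before adjustment over genes. In striatum the intervals of Drd1, Drd2 and Drd3 leave out 0, that of Drd5 does not, and all 3 prefrontal intervals include 0.

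Of 51 genes that act with or below dopamine receptors, 49 were in the table and were tested. In striatum 33 had values above 0 and 16 below (median 0.25, against -0.00 over all genes), 21 stood higher and 11 lower without overlap, against 8.8% and 17.6% of all genes. edgeR called 0 (26 at an unadjusted p below 0.05), DESeq2 12 and limma-voom 0, while edgeR in 1 fit of all 12 libraries called 18 higher and 2 lower. Of all genes, DESeq2 called 3.7% and that fit 7.15%. The 4 with the smallest p were Arpp19, a phosphatase regulator and protein kinase A substrate, at 1.33 (SE 0.27), Pde10a at 1.65 (SE 0.37), Rgs4, which speeds the turn-off of G proteins, at 1.44 (SE 0.33), and the phosphodiesterase Pde1b at 1.30 (SE 0.32). Ppp1r1b, the phosphatase inhibitor DARPP-32, was at 1.28 (SE 0.35) and Adcy5, the main striatal adenylyl cyclase, at 1.13 (SE 0.32). The G protein subunit Gnal, which couples D1 receptors to that cyclase in striatum, was at 0.69 (SE 0.25) with overlapping groups. On the lower side stood the potassium channel Kcnj6, a target of D2-like receptors, at -1.10 (SE 0.38), and the receptor kinase Grk2 at -0.26 (SE 0.08). With lesioned library 1 and control library 2 left out the median was 0.12 and edgeR called 1.

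In prefrontal cortex edgeR called 1 of these 49 lower and 0 higher, where it called 5.73% of all genes, 2.28% lower. It was Arpp21, a phosphoprotein gene, at -0.22 (SE 0.05, edgeR adjusted p = 0.0295). Arpp21 was not called between control striatum and control prefrontal cortex, at 0.01 on the log2 scale. The next by p were the arrestin Arrb2 at -0.25 (SE 0.08), Pde10a at -0.61 (SE 0.20) and Kcnj6 at 0.23 (SE 0.08), and the median was -0.02. Of the projection neuron markers tested there, 2 of 14 were called lower, Arpp21 and the transcription factor Meis2 at -0.25 (SE 0.06), followed by Pde10a and the retinoic acid receptor Rarb at -0.51 (SE 0.21). Of the direct pathway markers Chrm4 was called higher, at 0.31 (adjusted p = 0.0441), and of the indirect pathway markers Plxdc1 was called higher, at 0.49 (adjusted p = 0.00377), and Gpr52 lower, at -0.69 (adjusted p = 0.0104), all by edgeR. Of other cell types, edgeR called lower 3 of 6 astrocyte, 2 of 6 endothelial, 1 of 6 oligodendrocyte and 1 of 6 microglial genes. Their part in the receptor values was not tested. With all 12 libraries in 1 fit 0 genes of these lists were called in prefrontal cortex, and without any lesioned prefrontal library, taken singly, neither Arpp21, Meis2 nor Chrm4 was. Chrm4 was also not called without control library 1 or 2, with the replicate number as a block or with the multiples of 11 kept. Gpr52 was not called without lesioned library 2, nor Arpp21 without control library 3.

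The genes whose levels ran closest to each receptor over all 12 libraries were found among 13383 genes, by the root mean square (RMS) difference of log2 CPM after centring each gene on its mean. The libraries share both the regional and the lesion contrasts, so nearness is a description. The genes nearest to Drd1 included Ppp1r1b (RMS 0.18), Pde10a (0.21) and the exchange factor Rasgrp2 (0.21), against a median of 1.51 over all genes. Drd2 was nearest to Adora2a (0.15), Sh3rf2 (0.19), Syndig1l (0.28) and Cd4 (0.32), against 2.20.

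Adora2a had 6530, 2624 and 3798 counts in lesioned and 1908, 1300 and 2563 in control striatum, and Ppp1r1b 31273, 14330 and 19151 and 9095, 6453 and 12985. As with the receptors, lesioned library 1 was highest and control library 2 lowest for both. Drd3 had no neighbour over all 12 libraries as close as those of Drd1 and Drd2: Sfrp5 (0.51), Igsf1 (0.52), Magel2 (0.53) and Baiap3 (0.53) came first, against 2.21. Its prefrontal libraries held 0 to 3 counts, so counting error there adds to its distance from any gene. Magel2, an imprinted gene of hypothalamic neurons, had 138, 640 and 462 counts in lesioned and 624, 396 and 542 in control striatum, lowest in lesioned library 1 as Drd3 was. For Drd5, which varied least, Serpina3n, Enox2, Cobll1 and Fkbp14 lay at 0.20 to 0.21, against 0.52.

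Over the 6 striatal libraries alone, Drd1 was nearest to the peptidase gene Mme (RMS 0.07), Adcy5 (0.07), Gpr52 (0.08) and the G protein regulator Rgs9 (0.09), against a median of 0.73. Drd2 was nearest to Sh3rf2 (0.10), Pde10a (0.10), Dach1 (0.10) and Rasd2 (0.12), against 0.87. Drd3 was nearest to Sox18 (0.16), Gch1, which makes the cofactor of dopamine synthesis (0.17), L3hypdh (0.19) and Parp16 (0.20), against 0.58. Drd5 was nearest to Snrpe (0.04), Ly6e (0.06), Apba2 (0.06) and Sox12 (0.06), against 0.27. Drd4, below 1 CPM on average, was given no neighbours.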

How the data were processed

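Read counts per gene symbol were deposited by the authors in 1 table for 12 libraries. Per the submitters' processing notes, reads were aligned with STAR 2.7.1a to mm10 and counted with featureCounts. The sources used here do not give annotation, strand setting or multi-mapping rules. Per the labels' protocols, libraries were stranded mRNA libraries. Of the deposited symbols, 1830 hold only multiples of 11 and were left out of tests (0.144% of counts). None of the 5 receptors is among them.

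Tests used edgeR 4.0.16 (R 4.3.3): TMM scaling (factors 0.946 to 1.08), filterByExpr, a quasi-likelihood fit on the 6 compared libraries (all 12 for the difference between regions) and Benjamini-Hochberg adjustment over all genes tested, called below 0.05. Intervals of fold changes use the fit's t quantile. Within-library ratios used log2 CPM (prior count 2) and exact permutation tests in Python 3.11.15 with scipy 1.17.1. Scripts were tested on simulated counts. Named genes were the 5 receptors, their 4 nearest genes, and up to 4 genes with the smallest p of the receptor partner and projection neuron lists per lesion comparison. Ppp1r1b, Adcy5, Gnal, Kcnj6 and Grk2 in striatum, Ddc, Aldh1a1, Th, Slc6a3, Ret, Slc18a2, Eya1, Sfxn1, Grik3, Adora2a and Magel2 were named after their values were seen. A result on 1 gene named by this rule is not reported here. Members and lists were chosen with earlier results of these data known. Alternatives used DESeq2 1.42.0, limma 3.58.1, other scalings and filters, and left-out libraries. Figures were drawn with matplotlib 3.10.9.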

Additional observations from a re-analysis of the deposited data

How the results depend on the processing

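Of 414 alternative values for 25 results on the receptors, 403 kept direction and side of the threshold or, for ratios, which have no threshold, moved by less than 1 SD of the replicates. Drd1 over the projection markers, near 0, took either sign with 1 library left out (-0.09 to 0.04 in striatum, -0.17 to 0.10 in prefrontal cortex). DESeq2 called Drd1 (1.18) and Drd2 (1.55) in striatum. With lesioned striatal library 1 and control striatal library 2 left out, striatal Drd5 turned to 0.022 and lesioned Drd5 between regions passed at 0.56. Leaving out 1 library each gave 0.73 to 1.42 for Drd1 and 1.15 to 1.79 for Drd2 in striatum, -0.56 to 0.029 for Drd1 and -1.30 to -0.18 for Drd2 in prefrontal cortex, 0.37 to 0.56 for lesioned Drd5 between regions, and -1.73 to 2.33 for the Drd3 difference between regions. Drd1 over the direct pathway list in place of the projection list was 0.75 and Drd2 over the indirect list 0.67. Drd2 over the median of the projection markers was 0.26, and the indirect over the direct list by medians 0.23. The cause of each shift was not tested.

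Genes called in striatum were 4 by edgeR, 1040 in 1 fit of all 12 libraries, 529 by DESeq2, 0 by limma-voom with or without group weights, 0 with the multiples of 11 kept, 55 with the 2 libraries left out and 0 to 2 with 1 left out. In prefrontal cortex they were 803, 30 in the fit of all 12 and 195 to 1010 with 1 library left out. For the difference between regions they were 12, 116 by DESeq2, 2 by limma-voom, 0 with group weights, 5 with the multiples of 11 kept, 101 with the 2 libraries left out and 0 to 172 with 1 left out. With all 12 libraries in 1 fit, striatal adjusted p was 0.0601 for Drd1 and 0.0524 for Drd2.

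Deviations of same-numbered libraries correlated at -0.12, 0.01 and 0.03 between the striatal groups, -0.05, -0.10 and -0.06 between the prefrontal groups, and, between regions, 0.08, -0.01 and 0.11 in controls and 0.11, 0.07 and -0.00 in lesioned mice. Not every pair exceeded 0.1, so the numbers were not taken to pair libraries. These correlations cannot show that the libraries came from different mice. With the replicate number as a block, Drd1 was 1.11 and Drd2 1.49 in striatum (adjusted p = 0.189 for both), the count of genes called was 0 in striatum and 0 for the difference, and Drd2 over Drd1 in striatum was 0.38 (exact sign-flip permutation p = 0.25, the smallest 3 pairs allow). Drd3 and Drd4 in prefrontal cortex are limited by depth, at 0 to 17 counts per library.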
